A study of Mus musculus with 15 samples.

Results

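The genes of MHC class II antigen presentation were followed in podocyte fractions of young and aged mice. They were chosen by name: the chains H2-Aa, H2-Ab1 and H2-Eb1, the invariant chain Cd74, the peptide editor genes H2-DMa, H2-DMb1 and H2-DMb2, their inhibitor genes H2-Oa and H2-Ob, and the transactivator Ciita. All 10 were found among the 46078 genes of the deposited count table, and all 10 passed the filter on low counts in each comparison. The fractions came from male C57BL/6J mice, by digestion of the kidney cortex and magnetic sorting with antibodies to nephrin. Young mice were 4 months old and received no injection. Aged mice were 21 months old and received weekly injections for 8 weeks at 12 mg/kg, either of the PD-1 antibody RMP1-14 (aged aPD1ab-injected) or of the isotype control antibody 2A3 (aged IgG2a-injected). Young mice were not injected with any antibody, so that age and injection cannot be told apart between them and the aged groups. The labels list 5 mice per group, and 5 young, 4 aged IgG2a and 4 aged aPD1ab libraries could be tied to a group and were used.

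MHC class II molecules are pairs of an alpha and a beta chain that carry peptides from endocytosed proteins to the cell surface, where CD4+ T cells read them. New pairs are guided to endosomes by the invariant chain, of which a fragment (CLIP) stays in the groove until H2-DM exchanges it for other peptides. H2-O, best known from B cells, inhibits H2-DM. Ciita is the coactivator that switches these genes on. It binds no DNA itself and is recruited by the RFX, CREB and NF-Y factors that sit on the X and Y boxes of class II promoters. In the kidney, class II is known from dendritic cells, macrophages and B cells, and it can be induced by interferon gamma in cells that otherwise lack it.

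The promoters show what several of these genes share. RefSeq windows from 250 bases before to 50 bases after the start (GRCm38.p6) matched 7 of the 10 genes, with none for H2-Ab1, Cd74 and Ciita and more than 1 for H2-DMa. The Y box was searched as GATTGG on both strands, and a type of X box as AAC, any 3 bases and then TGATG, also on both strands. These letters were chosen after these windows had been read, so that the counts are a description, and the motifs do not overlap. A stretch of 65 bases around the Y box is given below for 6 genes, 5′ to 3′ along each gene, since these are the letters on which Ciita is known to act, with the matches in capitals.
H2-Aa (chr17:34287853-34287917, minus strand): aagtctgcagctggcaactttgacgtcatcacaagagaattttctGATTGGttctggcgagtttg
H2-Eb1 (chr17:34305762-34305826, plus strand): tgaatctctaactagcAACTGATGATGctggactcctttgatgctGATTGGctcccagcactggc
H2-DMb1 (chr17:34153084-34153148, plus strand): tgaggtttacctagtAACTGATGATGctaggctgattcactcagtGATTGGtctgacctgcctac
H2-DMb2 (chr17:34145113-34145177, plus strand): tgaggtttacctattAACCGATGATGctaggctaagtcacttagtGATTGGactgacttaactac
H2-Oa (chr17:34092290-34092354, plus strand): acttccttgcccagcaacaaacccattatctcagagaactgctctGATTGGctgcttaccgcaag
H2-Ob (chr17:34238802-34238866, plus strand): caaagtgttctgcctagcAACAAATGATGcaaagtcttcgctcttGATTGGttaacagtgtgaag

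In these 6 genes the Y box began 44 to 91 bases before the start. In H2-Eb1, H2-DMb1, H2-DMb2 and H2-Ob the X box letters began 27 to 30 bases before the Y box. The windows of H2-Aa and H2-Oa held no match to the X box letters, and 1 of the windows of H2-DMa held a Y box 199 bases before the start. No match says only that these letters are not in this window. Of all 32851 windows of this length, 16.1% held GATTGG and 0.615% held the X box letters. Only 6 windows, or 0.0183%, held both within 40 bases in this order: those of the 4 genes named and those of Cic and 1700048F04Rik. The stretches of H2-DMb1 and H2-DMb2 were identical at 56 of 65 bases, against 21 of 65 for H2-Oa and H2-Ob. Genes with the paired boxes were found on both sides of the divide described next: H2-Eb1 and H2-DMb1 were high in most aged IgG2a libraries, and H2-DMb2 and H2-Ob were not.

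Libraries held between 19912969 and 32717100 counts, so that 3 counts were worth 0.0843 to 0.207 CPM, which are counts relative to the library total after TMM scaling (edgeR's correction for library composition). Replicate numbers are only names here. Aged IgG2a replicate 1 stood apart: its summed proximal tubule markers reached 3893 CPM, against 830 to 1236 in the other 3 aged IgG2a libraries, and its macrophage markers 2199 against 5151 to 7028. Tests of the class II genes, and counts over lists of other genes, are therefore given over all libraries and without this one. It was also the lowest of its group in all 10 class II genes, so that leaving it out raises the group means. Calls made only without it rest on that choice. Aged aPD1ab replicate 2 held the most proximal tubule marker counts, 11556 CPM against 3738 to 5813 in the other 3. This library too was the lowest of its group in all 10 genes. Fits without it are given only where each library was left out in turn. The podocyte label was checked with 10 markers, all of them detected: their sum lay at 1030 to 1604 CPM in young, 587 to 768 in aged IgG2a and 340 to 949 in aged aPD1ab libraries, and in aged IgG2a-injected against young mice 8 of the 10 fell and 1 rose in edgeR, with the same counts without aged IgG2a replicate 1. Markers of macrophages, dendritic cells, B cells, endothelium and tubules were present in every library, so that the fractions were mixed. Over the 13 libraries 10 distal nephron and collecting duct markers summed to 6002 to 13912 CPM, against 340 to 1604 for the podocyte markers. Tubule RNA was thus plentiful, though sums of different genes do not give the share of a cell type. In such bulk samples, more cells of a type and more RNA per cell cannot be told apart.

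The classical chains were read in every library. H2-Aa, the alpha chain of I-A (chromosome 17, 34282744 to 34287823, minus strand), was at 2438, 2679, 1680, 1688 and 2769 CPM in young replicates 1 to 5. It was at 1707, 5256, 5303 and 4414 CPM in aged IgG2a replicates 1 to 4, and at 2869, 917, 4091 and 2222 CPM in aged aPD1ab replicates 1 to 4. Of the aged IgG2a libraries, 3 thus lay above every young and every aged aPD1ab library after TMM scaling, and replicate 1 lay within the young range. For replicate 4 the scaling matters, with a TMM factor of 0.706. On the unscaled share of the 10 genes together it held 1.51%, below the 1.76% of aged aPD1ab replicate 3. H2-Ab1, the beta chain of I-A (chromosome 17, 34257689 to 34269419), had means of 1825 ± 518 CPM in young (SD, n = 5), 3376 ± 1379 in aged IgG2a (SD, n = 4) and 2149 ± 1159 in aged aPD1ab libraries (SD, n = 4). H2-Eb1, the beta chain of I-E (chromosome 17, 34305867 to 34316674), had means of 2006 ± 536, 3962 ± 1664 and 2405 ± 1366 CPM in the same order. C57BL/6 mice are known to lack a working alpha chain for I-E, and H2-Ea-ps, the gene of that chain, held 0 to 2 counts in all 13 libraries.

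Cd74 (chromosome 18, 60803848 to 60812652), which encodes the invariant chain, was at 4545, 4937, 3217, 3178 and 5293 CPM in young replicates 1 to 5. In aged IgG2a replicates 1 to 4 it was at 3417, 9901, 10196 and 8426 CPM, and in aged aPD1ab replicates 1 to 4 at 5853, 1812, 7697 and 4064 CPM. As with H2-Aa, aged IgG2a replicates 2 to 4 lay above all other libraries. Over the 13 libraries H2-Aa varied 5.78-fold and Cd74 5.63-fold, but the ratio of Cd74 to H2-Aa only from 1.83 to 2.04. H2-Eb1 per H2-Aa lay between 0.836 and 0.995, and H2-Ab1 per H2-Aa between 0.722 and 0.897. These proportions thus varied less over all 13 libraries than the levels did.

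**Figure D1:**
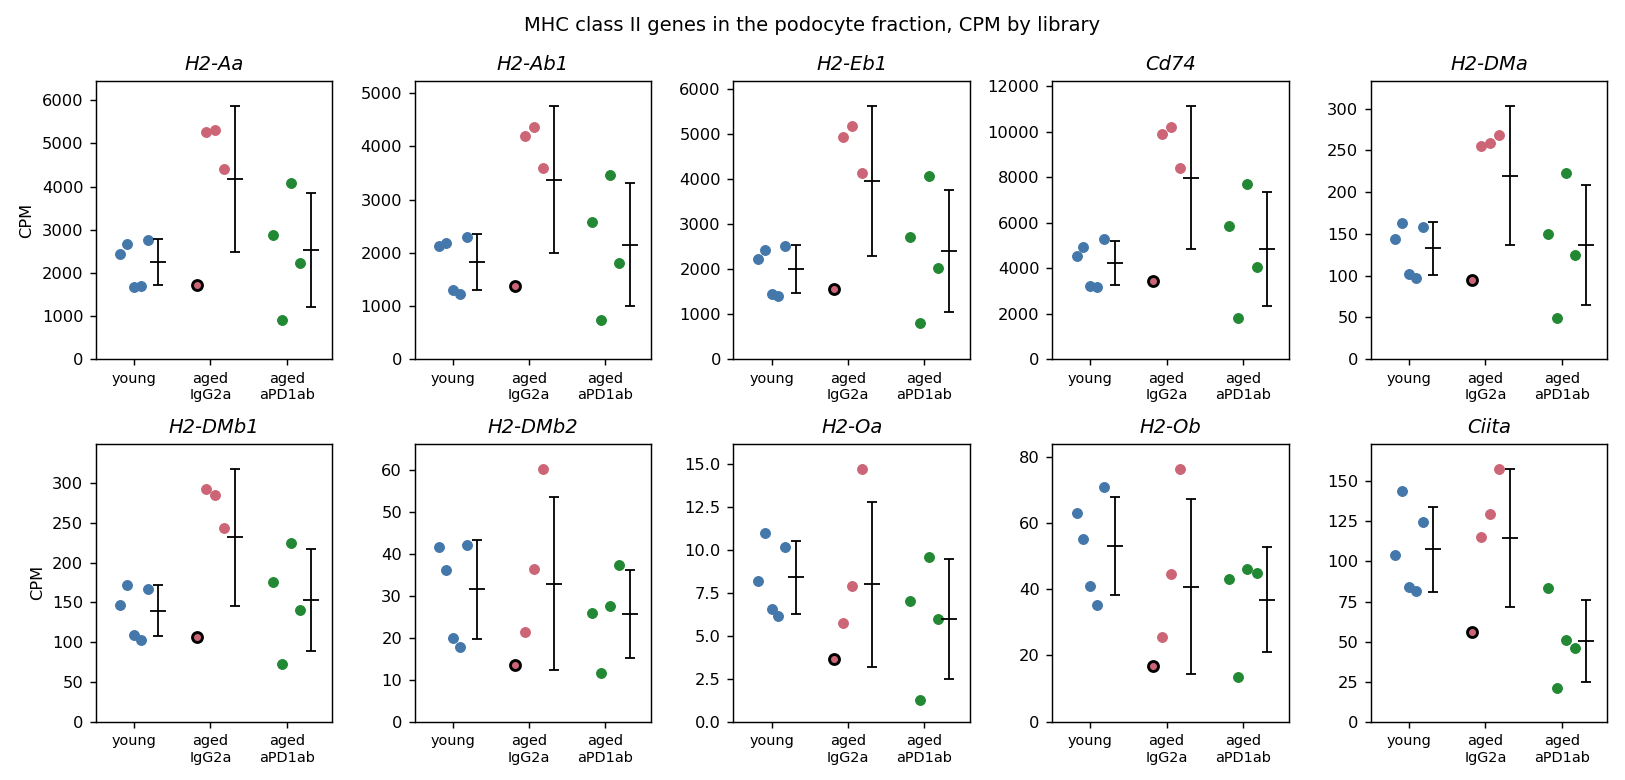
CPM (y axis, linear, from 0, a scale of its own in each panel) of the 10 class II genes in 5 young, 4 aged IgG2a and 4 aged aPD1ab libraries, 1 point per library, with the mean ± SD of each group beside the points. The point ringed in black is aged IgG2a replicate 1. From H2-Aa to H2-DMb1, 3 aged IgG2a libraries sit above all others. For H2-DMb2, H2-Oa and H2-Ob the aged IgG2a libraries reach both below and above the young ones, and Ciita is lowest in the aged aPD1ab group.

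H2-DM, the editor, was split between its subunits. H2-DMa (chromosome 17, 34119541 to 34139101) was at 97.0 to 163 CPM in young libraries, at 95.0, 256, 259 and 269 CPM in aged IgG2a replicates 1 to 4, and at 150, 48.6, 223 and 125 CPM in aged aPD1ab replicates 1 to 4. H2-DMb1 (chromosome 17, 34153072 to 34160230), 1 of the genes for the beta chain, followed it, at 103 to 172 CPM in young libraries and 107, 292, 285 and 243 CPM in aged IgG2a replicates 1 to 4. In both genes 3 aged IgG2a libraries were above all others. H2-DMb2 (chromosome 17, 34143307 to 34151555), the neighbouring gene for the same chain, did not follow: young libraries held 17.9 to 42.1 CPM, and aged IgG2a replicates 1 to 4 held 13.6, 21.5, 36.5 and 60.3 CPM. Aged aPD1ab replicates 1 to 4 held 26.0, 11.7, 27.5 and 37.3 CPM of H2-DMb2, within the range of the aged IgG2a group but for replicate 2. H2-DMb2 per H2-DMb1 accordingly lay at 0.174 to 0.285 in young, 0.0735 to 0.248 in aged IgG2a and 0.122 to 0.267 in aged aPD1ab libraries, and these ranges overlapped. Of the 50-base windows of H2-DMb1 transcripts, 22.7% are also found in H2-DMb2 transcripts, so that part of the reads cannot be assigned to either, and both values are uncertain to that extent. H2-DMa shares 10.4% of its exon bases with Brd2 on the other strand, and the strand setting of the counting is not given in the sources used here.

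The genes of H2-O, the inhibitor, did not have the pattern of the chains. H2-Ob (chromosome 17, 34238903 to 34254414) was at 35.3 to 70.98 CPM in young libraries, with a median of 55.1. It was at 16.7, 25.5, 44.5 and 76.3 CPM in aged IgG2a replicates 1 to 4, and at 43.1, 13.4, 46.1 and 45.03 CPM in aged aPD1ab replicates 1 to 4. The aged IgG2a libraries thus reached both below and above the young ones, and the order within the group differed from that of H2-Aa. H2-Oa (chromosome 17, 34092340 to 34095234), which encodes its partner chain, held 31 to 360 counts per library. It was at 6.17 to 10.99 CPM in young, 3.63 to 14.7 in aged IgG2a and 1.26 to 9.59 in aged aPD1ab libraries. Of its exon bases 22.8% overlap BC051537 on the other strand, so that its reads are less certain. Measured against the chains, H2-Ob was highest in young mice: per 1000 CPM of H2-Aa, H2-Ab1 and H2-Eb1 together it lay at 7.56 to 9.36 CPM in young, 1.77 to 6.28 in aged IgG2a and 3.96 to 7.42 in aged aPD1ab libraries. On this ratio all young libraries were above all aged ones, and the aged groups overlapped.

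Ciita (chromosome 16, 10480059 to 10528418), the transactivator, had a pattern of its own. Young replicates 1 to 5 held 104, 144, 84.3, 81.4 and 125 CPM. Aged IgG2a replicates 1 to 4 held 55.9, 115, 129 and 158 CPM, and aged aPD1ab replicates 1 to 4 held 83.6, 21.1, 50.7 and 46.2 CPM. Of the aged aPD1ab libraries, 3 lay below every library of both other groups, and replicate 1 lay within the young range. Per 1000 CPM of the 3 chains Ciita was at 15.4 to 19.7 CPM in young, 8.00 to 12.99 in aged IgG2a and 4.36 to 10.2 in aged aPD1ab libraries. Young libraries were above all aged ones on this ratio too, with or without aged IgG2a replicate 1, and the aged groups overlapped. The counts pool all starts of Ciita, which is known to use different promoters in different cell types. With Dexi, on the other strand, it shares 3.45% of its exon bases.

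**Figure D2:**
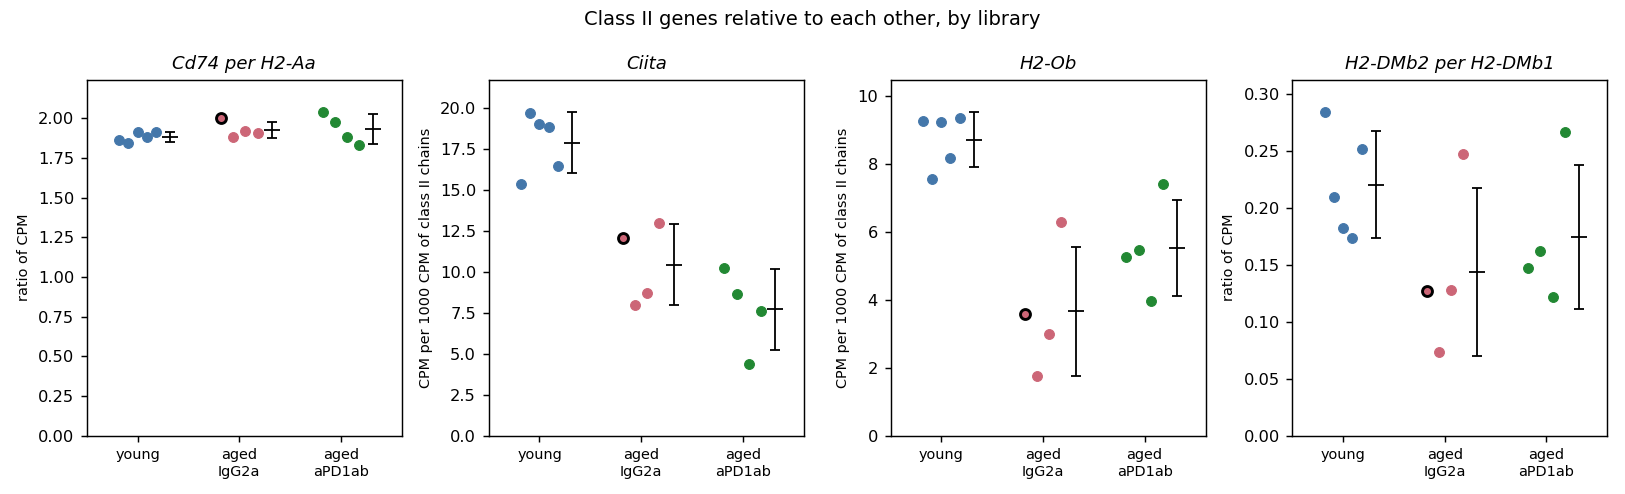
Ratios between class II genes in each of the 13 libraries (y axes linear, from 0), 1 point per library with the mean ± SD of each group beside the points; aged IgG2a replicate 1 is ringed in black. Cd74 per H2-Aa stays between 1.83 and 2.04. Ciita and H2-Ob, in CPM per 1000 CPM of H2-Aa, H2-Ab1 and H2-Eb1, are higher in every young library than in every aged one, and H2-DMb2 per H2-DMb1 overlaps between the groups.

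Levels of the genes can be compared with each other per length, as CPM per kb of all exon bases. In young mice Cd74 led with 2522 ± 585 CPM per kb (SD, n = 5), above H2-Eb1 with 1032 ± 276, H2-Ab1 with 711 ± 202 and H2-Aa with 593 ± 140. H2-Eb1 and H2-Ab1, and H2-Ab1 and H2-Aa, overlapped between libraries. Then followed H2-DMb1 with 83.0 ± 19.0, H2-DMa with 38.5 ± 9.12, H2-DMb2 with 18.1 ± 6.74, Ciita with 11.3 ± 2.79, H2-Ob with 9.86 ± 2.77 and H2-Oa with 5.99 ± 1.51 CPM per kb. From H2-DMb2 downwards each gene overlapped the next. With the longest transcript as the length in place of all exon bases, H2-Ab1 came to 1506 and stood above H2-Eb1 with 1202, and H2-Ob with 19.9 stood above Ciita with 17.9, so that these places rest on the choice of length. The order was the same in aged IgG2a libraries, where H2-Aa and H2-DMb1 were the only neighbours that did not overlap. In aged aPD1ab libraries Ciita (5.29 ± 2.69, SD, n = 4) and H2-Ob (6.86 ± 2.92) changed places, with overlap.

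The first comparison, of aged IgG2a-injected with young mice, addresses ageing together with control injection. Over all libraries, H2-Aa, H2-Ab1, H2-Eb1, Cd74, H2-DMa and H2-DMb1 had log2 fold changes between 0.80 and 1.06, and H2-DMb2, H2-Oa, H2-Ob and Ciita between -0.31 and 0.16. None of the 10 passed edgeR's quasi-likelihood test after Benjamini-Hochberg adjustment over all genes, whereas 17.4% of the 15953 genes tested did. Of the 10, 6 had an unadjusted p under 0.05, and DESeq2 called 5 (with 28.0% of all genes given an adjusted p) and limma's voom with sample quality weights called 6 of them (with 46.5% of all genes), all higher. The value for H2-Eb1 was 1.06 (SE 0.36, edgeR adjusted p = 0.0688) and for Cd74 0.99 (SE 0.34, edgeR adjusted p = 0.0712). The median over the 10 genes was 0.80, against 0.038 over all genes tested.

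Without aged IgG2a replicate 1 (n = 3 and n = 5), 6 of the 10 rose, while 22.1% of the 16216 genes tested rose and 23.5% fell. The 6 were the chains, Cd74, H2-DMa and H2-DMb1. H2-Eb1 rose by 1.30 on the log2 scale (SE 0.22, edgeR adjusted p = 0.000871), Cd74 by 1.22 (SE 0.21), H2-Aa by 1.204 (SE 0.21) and H2-Ab1 by 1.203 (SE 0.23). H2-DMa rose by 1.03 (SE 0.17) and H2-DMb1 by 1.03 (SE 0.18). H2-DMb2, with 0.36 (SE 0.40, edgeR adjusted p = 0.484), H2-Oa, with 0.20 (SE 0.30), H2-Ob, with -0.077 (SE 0.35), and Ciita, with 0.37 (SE 0.19, edgeR adjusted p = 0.143), did not pass. Over all libraries edgeR thus called none of these 6, whereas DESeq2 and voom called 5 and 6 genes there.

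**Figure D3:**
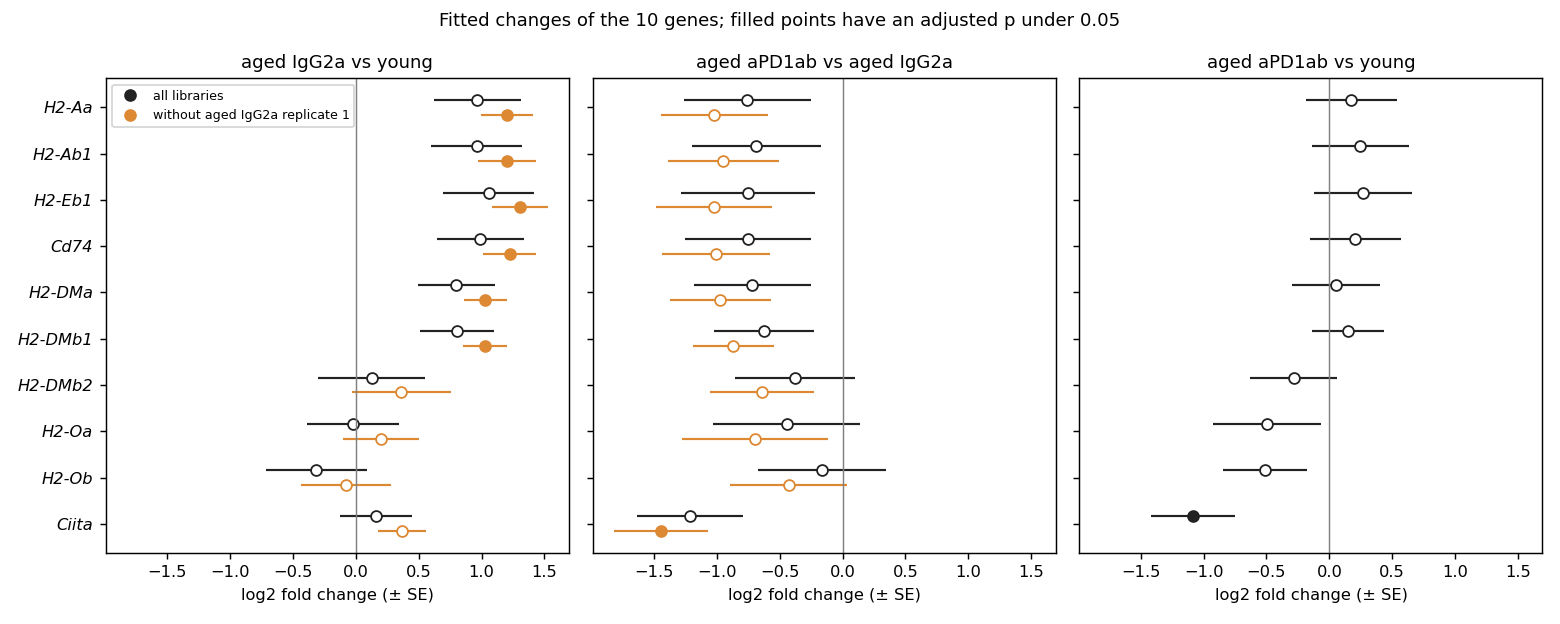
Log2 fold changes (x axis) of the 10 class II genes (y axis) in 3 comparisons, with bars of ± 1 SE from edgeR; black points use all libraries and orange points leave out aged IgG2a replicate 1, which the third comparison does not contain. Filled points have an adjusted p under 0.05: 6 genes in the first panel and Ciita in the second, both without that library, and Ciita in the third.

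The second comparison, of aged aPD1ab-injected with aged IgG2a-injected mice, addresses blockade of PD-1 in aged mice, and it shares the aged IgG2a libraries with the first. All 10 fitted values were negative, from -0.17 for H2-Ob to -1.21 for Ciita. None passed the test over all libraries, and 0.0% of the 15530 genes tested did in edgeR, though 4341 had an unadjusted p under 0.05. Among the 10 genes Ciita alone had an unadjusted p under 0.05, with a log2 fold change of -1.21 (SE 0.42, edgeR adjusted p = 0.127). DESeq2 called Ciita (adjusted p = 0.0386), among 15.9% of the genes it gave an adjusted p, and voom with quality weights called Ciita and the 6 genes named above, all lower, among 39.7% of all genes. The median over the 10 genes was -0.70, against -0.011 over all genes tested.

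Without aged IgG2a replicate 1 (n = 4 and n = 3), Ciita fell by 1.45 on the log2 scale (SE 0.37, edgeR adjusted p = 0.0238), and over 18 alternatives to the fit of all libraries the adjusted p ranged from 0.00114 to 0.297. It was the only one of the 10 to pass in edgeR, while 13.2% of the 15770 genes tested fell and 17.1% rose. In alternatives chosen after seeing the data, DESeq2 called 6 of the 10 lower in these libraries, among 38.0% of the genes given an adjusted p, and 1 edgeR fit of all 3 groups called Ciita and H2-DMb1 lower, among 38.9% of all genes. H2-DMb1 came next, with -0.87 (SE 0.32, edgeR adjusted p = 0.0733). H2-Aa had -1.02 (SE 0.43), Cd74 -1.01 (SE 0.43), H2-Eb1 -1.02 (SE 0.46) and H2-Ab1 -0.95 (SE 0.44). Although the 3 aged IgG2a libraries lay above all 4 aged aPD1ab libraries for H2-Aa, the aged aPD1ab libraries themselves were spread from 917 to 4091 CPM. H2-DMb2 had -0.64 (SE 0.42), H2-Oa -0.69 (SE 0.58) and H2-Ob -0.43 (SE 0.46).

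In the third comparison, of aged aPD1ab-injected with young mice, which shares libraries with both others, Ciita alone of the 10 passed: it fell by 1.08 on the log2 scale (SE 0.33, edgeR adjusted p = 0.0405), among 9.97% of 15986 genes that fell and 12.4% that rose. The call was lost (edgeR adjusted p from 0.0526 to 0.0929) when any 1 young library, aged aPD1ab replicate 3 or aged aPD1ab replicate 4 was left out, and it was kept without aged aPD1ab replicate 1 or 2. It was also lost without a filter on low counts (edgeR adjusted p = 0.103) and in 1 fit of all 3 groups (edgeR adjusted p = 0.0519). DESeq2 and voom with quality weights called Ciita as well, with 28.9% and 24.9% of all genes. For the chains and Cd74 the log2 fold changes were small against their errors, with H2-Aa at 0.17 (SE 0.36), H2-Ab1 at 0.24 (SE 0.38), H2-Eb1 at 0.27 (SE 0.39) and Cd74 at 0.21 (SE 0.36). These errors leave room for changes in either direction, and without aged aPD1ab replicate 3 all 4 values, and those of H2-DMa and H2-DMb1, were negative (-0.082 to -0.29). H2-Ob had -0.51 (SE 0.34) and H2-Oa -0.50 (SE 0.43). Set side by side, Ciita was at 0.16, -1.21 and -1.08 in the 3 comparisons, and H2-Aa at 0.96, -0.76 and 0.17.

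Markers of several cell types varied with these genes. The sum of 10 macrophage markers, among them Adgre1 (the F4/80 antigen), Csf1r and the C1q genes, was at 1563 to 2670 CPM in young libraries, at 2199, 7028, 6340 and 5151 in aged IgG2a replicates 1 to 4 and at 3143, 1613, 3810 and 2354 in aged aPD1ab replicates 1 to 4. These are the libraries in which the chains were high and low: the summed chains per macrophage marker CPM lay between 1.52 and 3.14 over all 13 libraries, a 2.07-fold range. On this ratio every young library (2.44 to 3.14) was above every aged IgG2a library (2.05 to 2.36). Aged aPD1ab libraries (1.52 to 3.05) overlapped both groups. Of these markers, 8 of 10 rose in aged IgG2a-injected against young mice, Mrc1, Cx3cr1 and Cd68 among them, while 9.05% of all genes rose. When aged IgG2a replicate 1 was left out, 9 of 10 rose, beside 22.1% of all genes. With aPD1ab against IgG2a none of the 10 passed edgeR over all libraries. Of the 10, 6 had an unadjusted p under 0.05, as did 4341 of all 15530 genes tested. DESeq2 called 5 lower, beside 15.9% of all genes it gave an adjusted p. Without aged IgG2a replicate 1, 9 fell, beside 13.2% of all genes. Against young mice 5 of 6 plasma cell, 3 of 8 T cell and 1 of 7 monocyte and neutrophil markers rose in aged IgG2a-injected mice over all libraries, and 5, 7 and 2 of them without aged IgG2a replicate 1. Of all genes 9.05% and 22.1% rose in these fits, and the monocyte and neutrophil counts lay near these shares. No marker gene of these lists was at 3 counts or fewer in every library, but some T cell markers lay near or below that floor in young libraries. There Cd3g and Cd5 had a lowest value of 0 CPM, and Cd3d held 0.134 to 0.366 CPM. The summed T cell markers lay at 5.64 to 14.0 CPM in young libraries. The chains per dendritic cell marker CPM ranged 2.99-fold and per B cell marker CPM 5.56-fold. Per dendritic cell marker CPM every young library (12.1 to 15.95) was below every aged one (17.55 to 36.2). Markers of several other kidney cells had the opposite direction. In aged IgG2a-injected against young mice 9 of 10 proximal tubule markers fell, with a median log2 fold change of -1.84, beside 7 of 10 endothelial and 5 of 8 mesangial cell and pericyte markers, while 8.38% of all genes fell. The counts were 10, 8 and 5 without aged IgG2a replicate 1, while 23.5% of all genes fell. Of distal nephron and collecting duct markers 1 of 10 rose and none fell over all libraries. Of parietal epithelial cell markers 1 of 5 fell and none rose. Without aged IgG2a replicate 1, 1 distal marker fell and none rose, and 3 parietal markers fell and 1 rose. With aPD1ab against IgG2a all 10 proximal tubule markers had positive values over all libraries, with a median of 1.76. None of them passed edgeR there, and 8 had an unadjusted p under 0.05. DESeq2 called 6 higher, again beside 15.9% of all genes it gave an adjusted p. Without aged IgG2a replicate 1, 9 rose, beside 17.1% of all genes. The part of any of these cell types in the change of the chains was not tested.

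H2-Ob and H2-DMb2 varied with B cell markers, and their ratios to other marker sums were not taken. The sum of 10 such markers, among them Ms4a1 and Cd79a, was at 275, 174, 120, 97.5 and 279 CPM in young replicates 1 to 5, at 88.0, 108, 176 and 462 CPM in aged IgG2a replicates 1 to 4, and at 219, 70.4, 166 and 253 CPM in aged aPD1ab replicates 1 to 4. The order in the aged IgG2a group is that of H2-DMb2, H2-Oa and H2-Ob, but also that of H2-DMa and Ciita. Over the 13 libraries H2-Ob varied 5.70-fold but H2-Ob per B cell marker CPM 2.19-fold, and H2-DMb2 varied 5.14-fold but per B cell marker CPM 1.76-fold. On this ratio H2-Ob lay at 0.229 to 0.362 in young libraries. It lay at 0.165 to 0.253 in aged IgG2a and 0.178 to 0.277 in aged aPD1ab libraries, with overlap. The groups overlapped for H2-DMb2 as well. None of the 10 B cell markers passed edgeR in any of the 3 comparisons over all libraries. At an unadjusted p under 0.05 there were 0, 0 and 1 of them in the order of the comparisons above. DESeq2 called 0, 0 and 1, beside 28.0%, 15.9% and 28.9% of all genes it gave an adjusted p. With quality weights voom called 0 in each, beside 46.5%, 39.7% and 24.9% of all genes. The part of B cells in these values was not tested.

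Ciita varied with the sum of dendritic cell markers, though single markers went in both directions. The sum (10 genes, among them Flt3, Zbtb46, Itgax and Xcr1) was at 305 to 501 CPM in young libraries, at 197, 505, 487 and 550 in aged IgG2a replicates 1 to 4, and at 315, 140, 321 and 280 in aged aPD1ab replicates 1 to 4. Ciita varied 7.46-fold over the libraries, per dendritic cell marker CPM 2.03-fold, per macrophage marker CPM 4.11-fold and per B cell marker CPM 5.84-fold. In aged IgG2a-injected against young mice 1 of the 10 dendritic cell markers rose (Batf3, by 1.35) and 2 fell (Dpp4, with -0.70, and Zbtb46, with -0.61), among 9.05% of all genes that rose and 8.38% that fell. These counts were 2 and 3 without aged IgG2a replicate 1, beside 22.1% and 23.5% of all genes. Itgax, with means of 117 ± 34.5 CPM in young (SD, n = 5) and 221 ± 106 in aged IgG2a libraries (SD, n = 4), had a value of 1.00 (SE 0.40) and Xcr1 -1.48 (SE 0.46) over all libraries, so that members of the sum had values in both directions. Between the aged groups none passed over all libraries and 2 fell without aged IgG2a replicate 1, beside 13.2% of all genes. In aged aPD1ab-injected against young mice 4 of the 10 fell, Flt3 and Xcr1 among them, beside 9.97% of all genes. Their part in the low Ciita values was not tested. Aged aPD1ab replicates 2, 3 and 4 held 0.151 to 0.165 CPM of Ciita per dendritic cell marker CPM, below the 0.228 to 0.307 of all other libraries, replicate 1 of that group included.

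**Figure D4:**
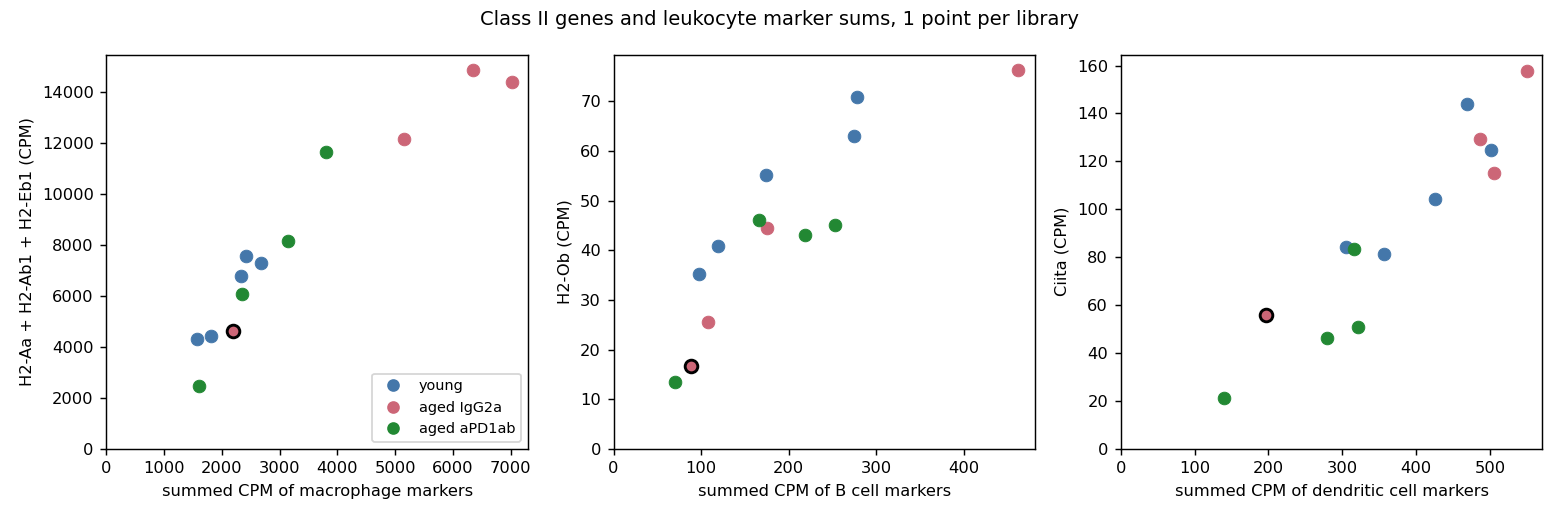
Class II genes (y axes, CPM) against summed CPM of cell type markers (x axes) in 13 libraries, 1 point per library, with aged IgG2a replicate 1 ringed in black; both axes are linear and start at 0. The summed H2-Aa, H2-Ab1 and H2-Eb1 rise with macrophage markers, H2-Ob with B cell markers and Ciita with dendritic cell markers. No test was made on these points, which share their library totals.

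The machinery around class II was followed in 6 lists of 43 genes, of which 39 were tested. In aged IgG2a-injected against young mice, 9 of the 39 rose and none fell over all libraries, while 9.05% of all genes rose and 8.38% fell. The median was 0.63 on the log2 scale, against 0.038 over all genes. Without aged IgG2a replicate 1, 22 rose and 4 fell, against 22.1% and 23.5% of all genes. Between the aged groups none of the 39 passed edgeR over all libraries. Of the 39, 13 had an unadjusted p under 0.05, as did 4341 of all 15530 genes tested. DESeq2 called 2 higher and 6 lower, beside 15.9% of all genes it gave an adjusted p. Without that library 3 rose and 16 fell with aPD1ab, against 17.1% and 13.2% of all genes. Genes named below as risen against young mice in the aged IgG2a group over all libraries also passed without aged IgG2a replicate 1.

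Of the factors that bind class II promoters, none of 7 passed edgeR between aged IgG2a-injected and young mice, with 0 at an unadjusted p under 0.05 and 0 called by DESeq2 or voom. Nfyc, an NF-Y subunit, fell by 0.29 once aged IgG2a replicate 1 was left out. Rfx5, the subunit of RFX that binds the X box, was at 14.9 ± 3.23 CPM in young (SD, n = 5), 15.4 ± 3.58 in aged IgG2a (SD, n = 4) and 9.76 ± 1.39 in aged aPD1ab libraries (SD, n = 4). It fell by 0.60 in aged aPD1ab-injected against young mice (SE 0.17, edgeR adjusted p = 0.0337). Creb1 fell by 0.39 in the same comparison (SE 0.12, edgeR adjusted p = 0.0397), and Rfxap, another RFX subunit, rose by 0.53 (SE 0.15, edgeR adjusted p = 0.0312). The NF-Y genes, whose product binds the Y box, did not pass there. Of the 7 factors 2 thus fell and 1 rose in edgeR, while 9.97% of all genes fell and 12.4% rose. With voom and quality weights 2 of the 7 factors rose in this comparison and none fell, beside 24.9% of all genes called. The calls of Rfx5 and Creb1 were thus lost.

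On the interferon gamma route to Ciita, 2 of 8 genes tested rose in aged IgG2a-injected against young mice: the receptor chain Ifngr2, by 1.15 (SE 0.25, edgeR adjusted p = 0.0199), and Usf1, a factor of the Ciita promoter, by 0.65. Ifngr1 and Irf2 rose as well when aged IgG2a replicate 1 was left out. Jak2, a kinase of the receptor, fell by 0.48 in aged aPD1ab-injected against young mice (SE 0.11, edgeR adjusted p = 0.0124). Ifng itself held 0 to 10 counts per library and was not tested. At 3 counts or fewer in 6 of 13 libraries it was at the limit of detection.

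Of 9 genes that process antigen and the invariant chain, 4 rose in aged IgG2a-injected against young mice. They were Ctss (1.40, SE 0.36), the protease that trims the invariant chain in antigen-presenting cells, Ctsb (1.28, SE 0.23), Ifi30 (0.96, SE 0.20), a lysosomal thiol reductase, and the asparaginyl endopeptidase Lgmn (0.68, SE 0.21). Ctsl, which trims the invariant chain in thymic epithelium, had a negative value, -0.60 (SE 0.21, edgeR adjusted p = 0.0698), and fell by 0.84 without aged IgG2a replicate 1. In aged aPD1ab-injected mice Ctsb, Ctsd, Lgmn and Ifi30 rose against young mice, and Sppl2a, which clears the last fragment of the invariant chain, fell by 0.30 on the log2 scale (SE 0.095).

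Among 9 genes of class II turnover and co-receptors, Il10 rose in aged IgG2a-injected against young mice, from 0.679 ± 0.370 CPM (SD, n = 5) to 5.11 ± 2.82 (SD, n = 4; edgeR adjusted p = 0.00859). March1, the ubiquitin ligase that takes class II off the surface, was at 34.4 ± 3.94, 56.1 ± 25.8 and 22.0 ± 6.35 CPM in young, aged IgG2a and aged aPD1ab libraries. It fell by 0.64 in aged aPD1ab-injected against young mice (SE 0.18, edgeR adjusted p = 0.0313), where Cd63, a tetraspanin of late endosomes, and Il10 rose. Of 5 costimulators and class II receptors, Cd86 (1.06, SE 0.28) and Lag3 (1.85, SE 0.35), which binds class II, rose in aged IgG2a-injected mice. Lag3 rose by 0.92 in aged aPD1ab-injected against young mice.

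The class I pathway was set beside class II for comparison. H2-K1, H2-D1, B2m and Psmb8 rose in aged IgG2a-injected against young mice, by 1.01 to 1.04 on the log2 scale over all libraries. In edgeR 4 of 10 genes thus passed, while 9.05% of all genes rose. DESeq2 called 5 genes of either pathway there, beside 28.0% of all genes it gave an adjusted p. The difference between the pathways was not tested. The summed levels of H2-K1, H2-D1 and B2m varied 3.83-fold over the libraries, against 5.82-fold for the 10 class II genes summed. Taken singly, H2-Aa varied 5.78-fold, H2-Ab1 5.90-fold and H2-Eb1 6.52-fold. Without aged IgG2a replicate 1, 8 of 10 class I genes rose against young, as did 22.1% of all genes, and 9 of 10 fell with aPD1ab against IgG2a, as did 13.2% of all genes. Tap1, Tap2, Psmb8 and Psmb9 lie between H2-DMb1 and H2-Ob on chromosome 17, so that genes of both pathways and of both class II patterns are neighbours there.

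**Figure D5:**
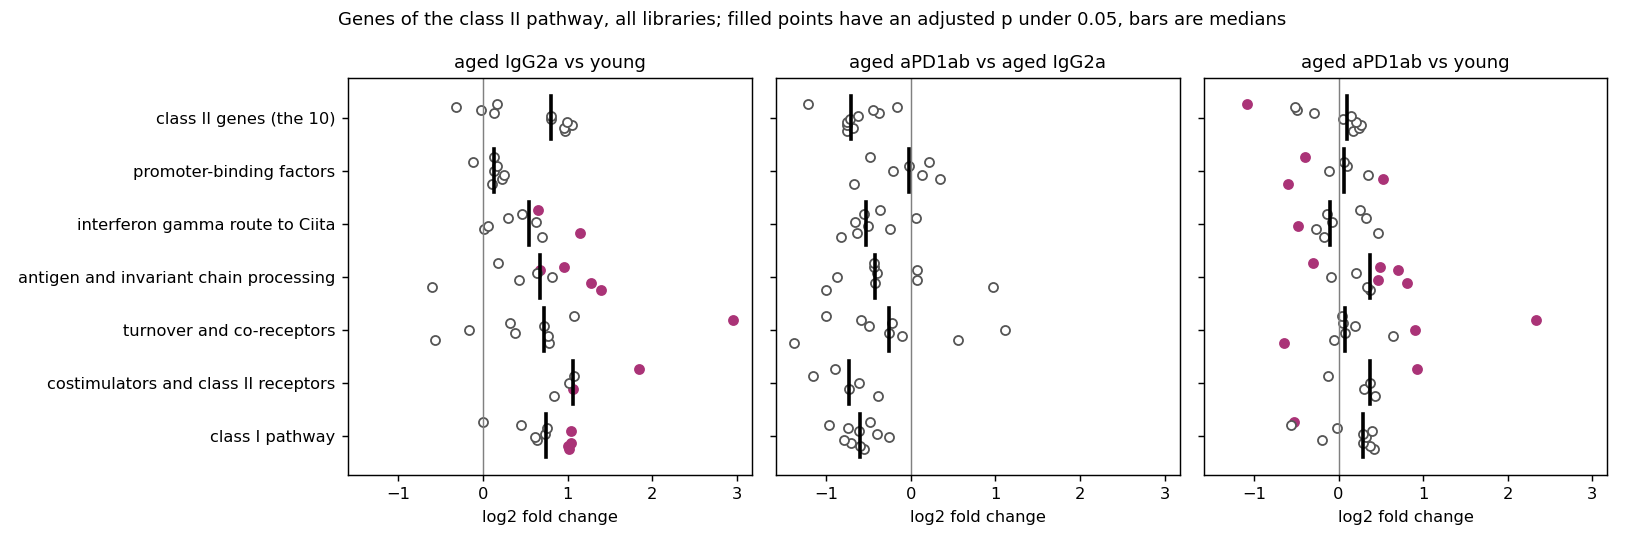
Log2 fold changes (x axis) of the genes of 7 lists (y axis), fitted over all libraries, in the 3 comparisons; each point is 1 gene, filled where the adjusted p is under 0.05, and a bar marks the median of a list. In the first panel 9 genes outside class I and class II are filled, none in the second, and the promoter-binding factors lie between -0.12 and 0.25 in the first.

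The genes most like the class II genes over the 13 libraries were found by the mean absolute difference of centred log2 CPM, among 16320 other genes that passed the filter. Closest to the mean of H2-Aa, H2-Ab1, H2-Eb1 and Cd74 were Ramp1 (0.0960), Arhgap45 (0.120), Mcub (0.121), Clec5a (0.122) and Arrb2 (0.124). H2-DMa lay at 0.106 and H2-DMb1 at 0.124 from it, and H2-Oa, H2-DMb2, Ciita and H2-Ob at 0.447 to 0.572. Closest to the mean of H2-Oa and H2-Ob were Tespa1 (0.237), Hs3st1 (0.247), Bcl11a (0.251), Agap2 (0.256) and Ebf1 (0.266), and H2-DMb2 lay at 0.237. Closest to Ciita were Inpp4b (0.155), Skint3 (0.169), Zfyve28 (0.174), Soga1 (0.178) and Dock10 (0.179), while the 9 other class II genes lay at 0.303 to 0.540.

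How much of the sequenced RNA came from class II differed with the scale. The 10 genes took 0.832% to 1.52% of all counts in young libraries, 0.870%, 2.31%, 2.05% and 1.51% in aged IgG2a replicates 1 to 4 and 0.441% to 1.76% in aged aPD1ab libraries. On this unscaled share aged IgG2a replicate 4 lay within the young range and below aged aPD1ab replicates 1 (1.59%) and 3 (1.76%). After TMM scaling its summed CPM, 21393, was above the young maximum of 13446 and the aged aPD1ab maximum of 19911. Aged IgG2a replicates 2 and 3 were above every young library on both scales.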

How the data were processed

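mRNA of nephrin-sorted podocyte fractions was sequenced, and the authors deposited whole-number counts of reads per Ensembl gene, without normalization. Per the labels, HISAT2 and featureCounts were used with mm10 (GRCm38); versions and strand setting are not given in the sources used here. Column names match no label: 13 columns were tied to groups by the numbers in the paper's plot of principal components, and 2 columns were not used. Replicates are single mice. The 10 genes and all lists were chosen with earlier results of these data known. Symbols and positions come from GENCODE M21 (GRCm38, 45229 of 46078 genes).

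Separate fits for each pair of groups used edgeR 4.0.16 (R 4.3.3; TMM, filterByExpr, robust quasi-likelihood test, Benjamini-Hochberg adjustment over all genes tested), with calls at an adjusted p under 0.05. The scripts were tested on simulated data. CPM use 1 set of TMM factors over 13 libraries. Totals of 19912969 to 32717100 counts put 3 counts at 0.0843 to 0.207 CPM; this covers counting error only. Profiles use log2(CPM + 1). Alternatives were other normalizations, no filter, DESeq2 1.42.0, limma 3.58.1 voom with sample quality weights, 1 fit of all 3 groups, a 2-fold threshold, other gene sets for the library size, exon length and leaving out each library. In 2 further alternatives, chosen after seeing the data, aged IgG2a replicate 1 was left out of the DESeq2 fit and of the joint fit. Genes named are all 10 class II genes, members of lists that passed or bear on them, and the 5 most similar profiles; some genes of the lists are not reported here by name.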

Additional observations from a re-analysis of the deposited data

Results flagged for a closer look

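In groups of 4 or 5 libraries, the gap between the lowest or highest library and its neighbour was set against the range of the group (Dixon's test, 95% level) for the 10 genes and their sum. Of 33 groups 2 stood out, where chance gives about 1 in 20. H2-DMa was low in aged IgG2a replicate 1, at 95.0 CPM, with the other 3 libraries between 256 and 269 CPM. H2-Ob was low in aged aPD1ab replicate 2, at 13.4 CPM, with the other 3 between 43.1 and 46.1 CPM. Each of these libraries was the lowest of its group in all 10 genes, and the second also held the most proximal tubule marker counts of all libraries. Their part in these values was not tested.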

How the results depend on the processing

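The groups were made of different mice, so that the comparisons were not paired. For aged IgG2a against young, 0 of the 10 genes were called by edgeR, 5 by DESeq2, 6 by voom with quality weights, and 6 without aged IgG2a replicate 1 by DESeq2 and by 1 fit of all 3 groups. Leaving out 1 library in turn gave 0 to 6. For aPD1ab against IgG2a, 0 became 1 (Ciita) with DESeq2 and with 1 fit of all 3 groups, and 7 with voom. Without aged IgG2a replicate 1 DESeq2 gave 6 and 1 fit of all 3 groups gave 2. Leaving out 1 library in turn gave 0 to 1. For aPD1ab against young, 1 (Ciita) became 0 without a filter and in 1 fit of all 3 groups, and leaving out 1 library gave 0 to 1. Other normalizations changed none of the edgeR counts over all libraries. The 2-fold threshold could not change a count of 0, and for aPD1ab against young it kept Ciita, whose -1.08 is close to the threshold of 1 on the log2 scale. With voom the count over all genes for aPD1ab against IgG2a went from 0 to 6160. The fitted log2 fold changes changed sign in 22 cases, and in each the value over all libraries had not passed. Leaving out 1 library in turn gave, for aged IgG2a against young, values from -0.36 to 0.36 for H2-DMb2, -0.51 to 0.20 for H2-Oa and -0.052 to 0.37 for Ciita. H2-Oa was also at 0.22 and 0.15 in DESeq2 and the joint fit without aged IgG2a replicate 1. Between the aged groups they ran from -0.64 to 0.11 for H2-DMb2, -0.76 to 0.051 for H2-Oa and -0.43 to 0.35 for H2-Ob, with the sign turned by aged IgG2a replicate 4 in all 3 and by aged aPD1ab replicate 2 in H2-Ob. For aged aPD1ab against young they ran from -0.15 to 0.45 for H2-Aa, -0.082 to 0.53 for H2-Ab1, -0.10 to 0.56 for H2-Eb1, -0.10 to 0.48 for Cd74, -0.29 to 0.33 for H2-DMa and -0.096 to 0.38 for H2-DMb1, with the lowest value without aged aPD1ab replicate 3 and the highest without aged aPD1ab replicate 2. H2-DMa was at -0.019 with voom. The causes were not tested. With 4 libraries in a group that spread as much as the aged aPD1ab group, the precision of the chains is limited by the spread between mice, and for H2-Oa also by counts as low as 31.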
